A study of Capra hircus with 10 samples.

Results

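Translation factors are the soluble proteins that load ribosomes onto mRNA and carry them along it. The genes of the cytosolic initiation factors (eIF1 to eIF6) and elongation factors (eEF1 and eEF2) were compared between luteal and follicular phase ovaries of the goat. The members were all protein-coding genes in the transcript table whose symbol starts with EIF followed by a digit from 1 to 6, or with EEF followed by 1 or 2. This gave 61 of 20587 gene symbols, with 125 of 43766 protein-coding transcripts. The choice rests on the symbol alone, so it also took in kinases, methyltransferases and repressors that act on these factors.

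Whole ovaries of the Anhui white goat were studied, 5 from the luteal and 5 from the follicular phase. All were collected at a slaughterhouse, and the labels name no treatment and no age. Total RNA of each ovary was freed of ribosomal RNA and sequenced as a stranded, paired-end library. Neither the labels nor the methods say whether each ovary came from a different animal, so the p-values measure the spread between these ovaries. Each value is FPKM, a fragment count corrected for transcript length and for the size of the library, summed here over the transcripts of a symbol.

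In initiation, a ternary complex of eIF2, GTP and the initiator tRNA joins the small ribosomal subunit with eIF1, eIF1A, eIF3 and eIF5, and eIF4F brings this complex to the capped end of the mRNA. eIF4F holds the cap-binding protein eIF4E, the scaffold eIF4G and the helicase eIF4A. Kinases that phosphorylate eIF2 alpha and small proteins that bind eIF4E are the best known brakes. In elongation, eEF1A delivers each aminoacyl-tRNA, the eEF1B subunits recharge eEF1A with GTP, and eEF2 moves the ribosome by a codon. In the ovary, the corpus luteum makes progesterone at a high rate after ovulation, while follicles before it hold dividing granulosa cells and growing oocytes.

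FPKM summed to between 452508 and 503276 in the luteal phase ovaries and to between 492324 and 540124 in the follicular phase ovaries, so the scale itself differed. Read counts were not used here. From the size of single-fragment steps in low genes, depth relative to luteal phase ovary 1 was estimated at 0.873 to 1.00 in the luteal phase ovaries and at 0.885 to 1.34 in the follicular phase ovaries, with follicular phase ovary 2 the deepest. The labelled phases showed in the markers: 5 of 5 corpus luteum genes tested were higher in the luteal phase (summed FPKM 5768 to 7930 against 123 to 172), as were 5 of 5 endothelial genes (184 to 236 against 79.7 to 92.6). All 4 smooth muscle genes (267 to 487 against 630 to 773), 7 of 11 oocyte genes (9.13 to 21.3 against 17.5 to 50.6) and 3 of 6 granulosa cell genes (92.0 to 639 against 203 to 1054) were lower. Of 5 stromal genes 1 was higher and 1 lower, and 0 of 4 leukocyte genes passed. The blood marker ALAS2 stayed under the filter. No marker was at 0 in all ovaries. In whole ovaries, fewer cells of a type and less RNA per cell cannot be told apart, and the part of cell composition in the values below was not tested.

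All 61 members passed the filter on low values and entered the test, a limma fit on log2(FPKM + 0.1) adjusted by the Benjamini-Hochberg method over 15359 genes. A gene was called at an adjusted p under 0.05. Of the members 30 (49.2%) were called, against 43.7% of all genes, so the share called was near the background. The calls leaned to 1 side. In the luteal phase 27 members (44.3%) were lower, against 27.8% of all genes, and 3 (4.92%) were higher, against 15.9% of all genes. The median log2 fold change was −0.14 over the members and also −0.14 over all genes. For 20 members (32.8%) the phases did not overlap, against 28.4% of all genes, and luteal values were the lower ones in 19 of these.

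The number of lower calls depended on how ovaries were scaled. After each ovary was shifted to a common median, 17 members were lower and 4 higher, and on the TPM scale 19 were lower and 4 higher. With quantile normalization 29 were lower and 3 higher. Over all genes the split moved from 2439 higher and 4272 lower to 2910 and 3055 with a common median and to 2884 and 2610 in TPM. With a common median and in TPM alike, 16 of the 27 lower calls were kept, and no called member changed direction. In all 10 fits that each left out 1 ovary, 25 of the 30 calls were kept.

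**Figure D1:**
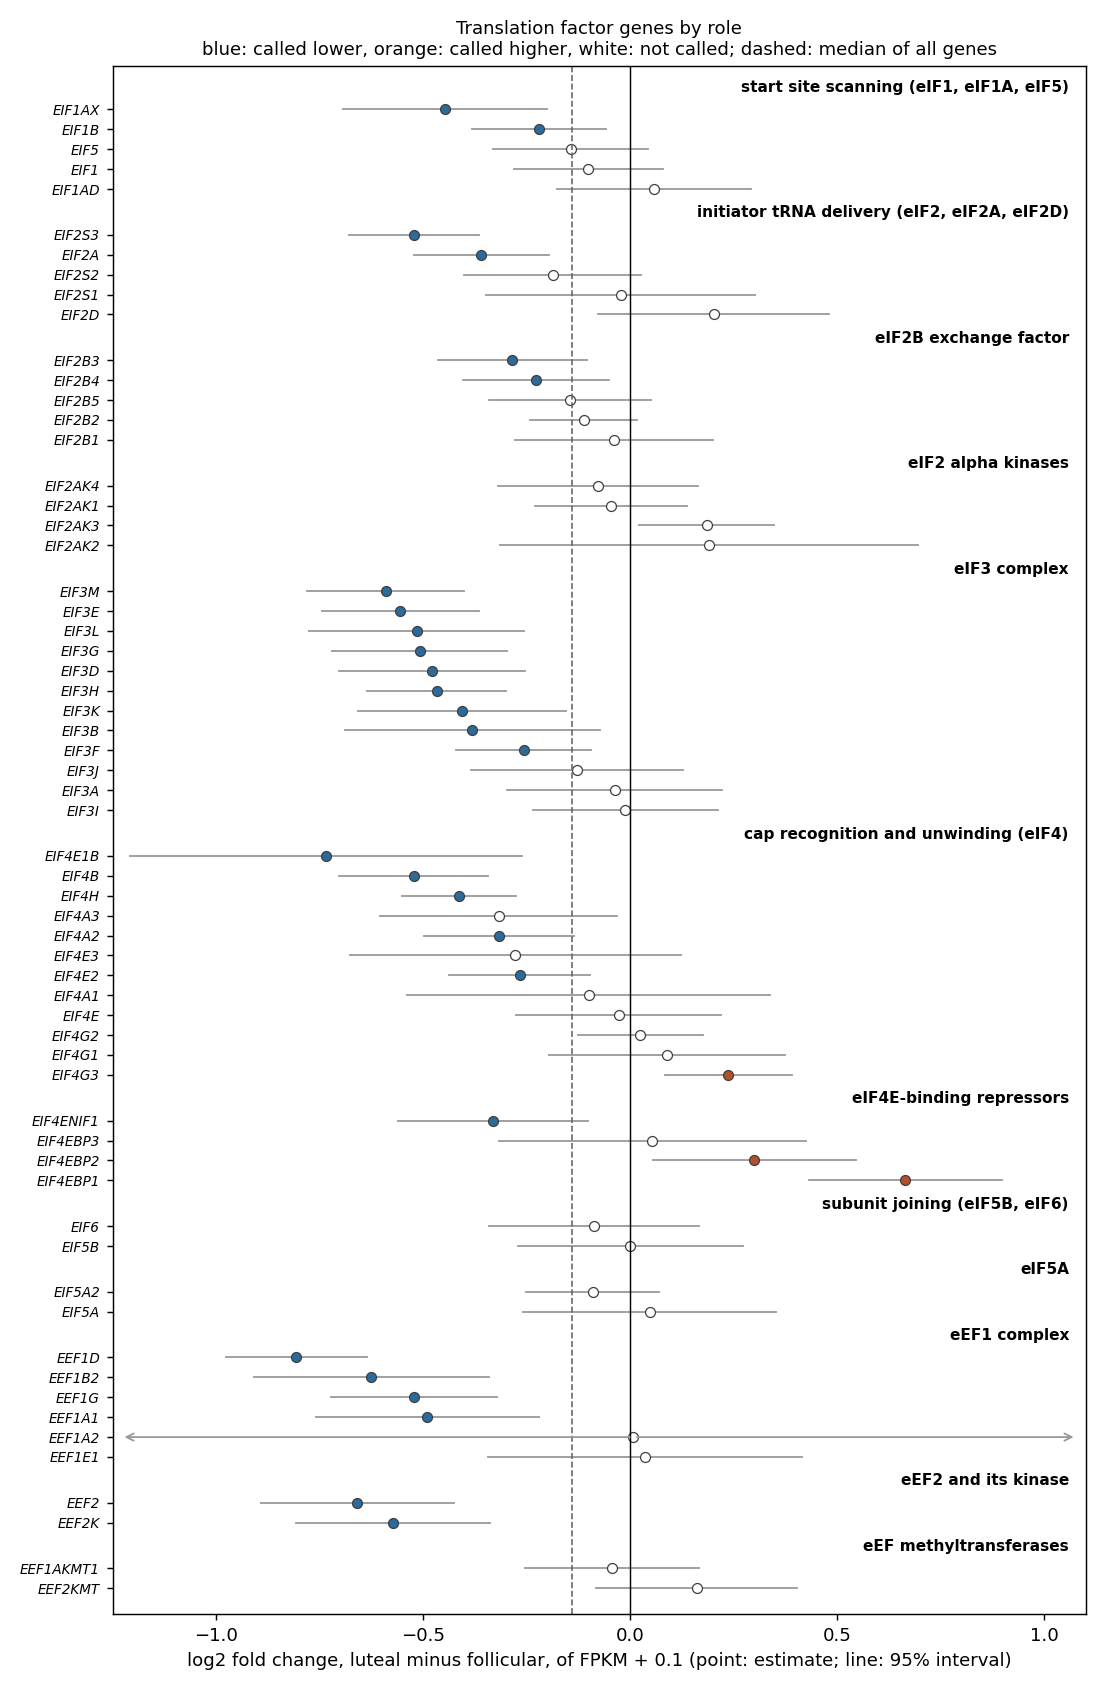
Log2 fold change, luteal minus follicular, of all 61 members by role, with 95% intervals; blue points are called lower, orange points called higher and white points not called, and the dashed line is the median of all genes. Called genes lie left of 0 except EIF4EBP1, EIF4EBP2 and EIF4G3; the interval of EEF1A2 runs past both edges, as the arrows show.

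The highest mean FPKM (EEF1A1) and the largest log2 fold change of a called member (EEF1D) were those of elongation factors. Among 6 genes grouped with the eEF1 complex 4 were lower in the luteal phase (66.7%, against 27.8% of all genes). None of them was higher (against 15.9%). EEF2 and the gene of its kinase were also lower. EEF1D encodes the exchange factor subunit eEF1B delta, which recharges eEF1A with GTP. EEF1D FPKM was 231, 247, 231, 222 and 195 in luteal phase ovaries 1 to 5 and 379, 426, 387, 382 and 392 in follicular phase ovaries 1 to 5. The phases lay far apart, with the highest luteal value, 247, well under the lowest follicular value, 379. The mean was 225 ± 19.2 (SD, n = 5) against 393 ± 18.7 (n = 5), 42.7% lower, with a log2 fold change of −0.81 (SE 0.08, adjusted p = 2.03e-05).

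The other exchange factor genes moved with it. EEF1B2, the catalytic subunit eEF1B alpha, had FPKM of 848, 1022, 1017, 955 and 707 in the luteal phase ovaries and 1219, 1650, 1303, 1391 and 1422 in the follicular phase ovaries. These ranges did not overlap, and the log2 fold change was −0.62 (SE 0.13, adjusted p = 0.00283). EEF1G, the scaffold subunit eEF1B gamma, ranged from 327 to 429 FPKM against 534 to 622 (log2 fold change −0.52, SE 0.09, adjusted p = 0.00105). EEF1E1, a cofactor of the multi-synthetase complex, was grouped with the eEF1 complex only by its name. It was not called at 10.6 ± 1.74 against 10.5 ± 2.72 FPKM (log2 fold change 0.04, adjusted p = 0.875).

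EEF1A1, which brings aminoacyl-tRNA to the ribosome, was the member with the highest FPKM. EEF1A1 FPKM was 2392, 2549, 2232, 2463 and 1973 in the luteal phase ovaries and 2996, 3598, 3152, 3471 and 3063 in the follicular phase ovaries. The phases did not overlap. The luteal mean was 28.7% lower (log2 fold change −0.49, SE 0.12, adjusted p = 0.0081). With a common median the log2 fold change was −0.40 and the call was lost (adjusted p = 0.0614), while on the TPM scale it was kept (adjusted p = 0.0033). The gene has many near-identical copies in mammalian genomes, and how fragments shared with them were counted is not given in the sources used here, so its level is uncertain. Its paralog EEF1A2, the form of muscle and neurons, was near the floor, at 0.08 to 0.79 FPKM in the luteal phase ovaries and 0.16 to 1.60 in the follicular phase ovaries.

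EEF2, the translocase, stood at 339, 308, 251, 264 and 264 FPKM in the luteal phase ovaries and at 509, 493, 408, 421 and 415 in the follicular phase ovaries. EEF2K encodes the kinase that phosphorylates and stops eEF2. EEF2K FPKM was 14.1, 11.6, 15.7, 12.7 and 13.5 against 19.2, 17.0, 22.7, 18.8 and 23.3. Both genes were lower in all luteal phase ovaries than in any follicular phase ovary, EEF2 by 36.5% in the mean (log2 fold change −0.66, SE 0.11, adjusted p = 0.000638) and EEF2K by 33.1% (log2 fold change −0.57, SE 0.11, adjusted p = 0.00155). The log2 ratio of EEF2K to EEF2 within an ovary was −4.39 ± 0.28 in the luteal and −4.47 ± 0.32 in the follicular phase (two-sided exact permutation p = 0.659). The methyltransferase genes EEF1AKMT1, which modifies eEF1A, and EEF2KMT, which modifies eEF2, were not called. EEF1AKMT1 had 7.48, 9.05, 8.20, 7.39 and 8.89 FPKM in the luteal phase ovaries and 8.63, 9.45, 7.23, 8.25 and 8.75 in the follicular phase ovaries, with overlap. The log2 fold changes were −0.04 (adjusted p = 0.731) and 0.16 (adjusted p = 0.256).

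**Figure D2:**
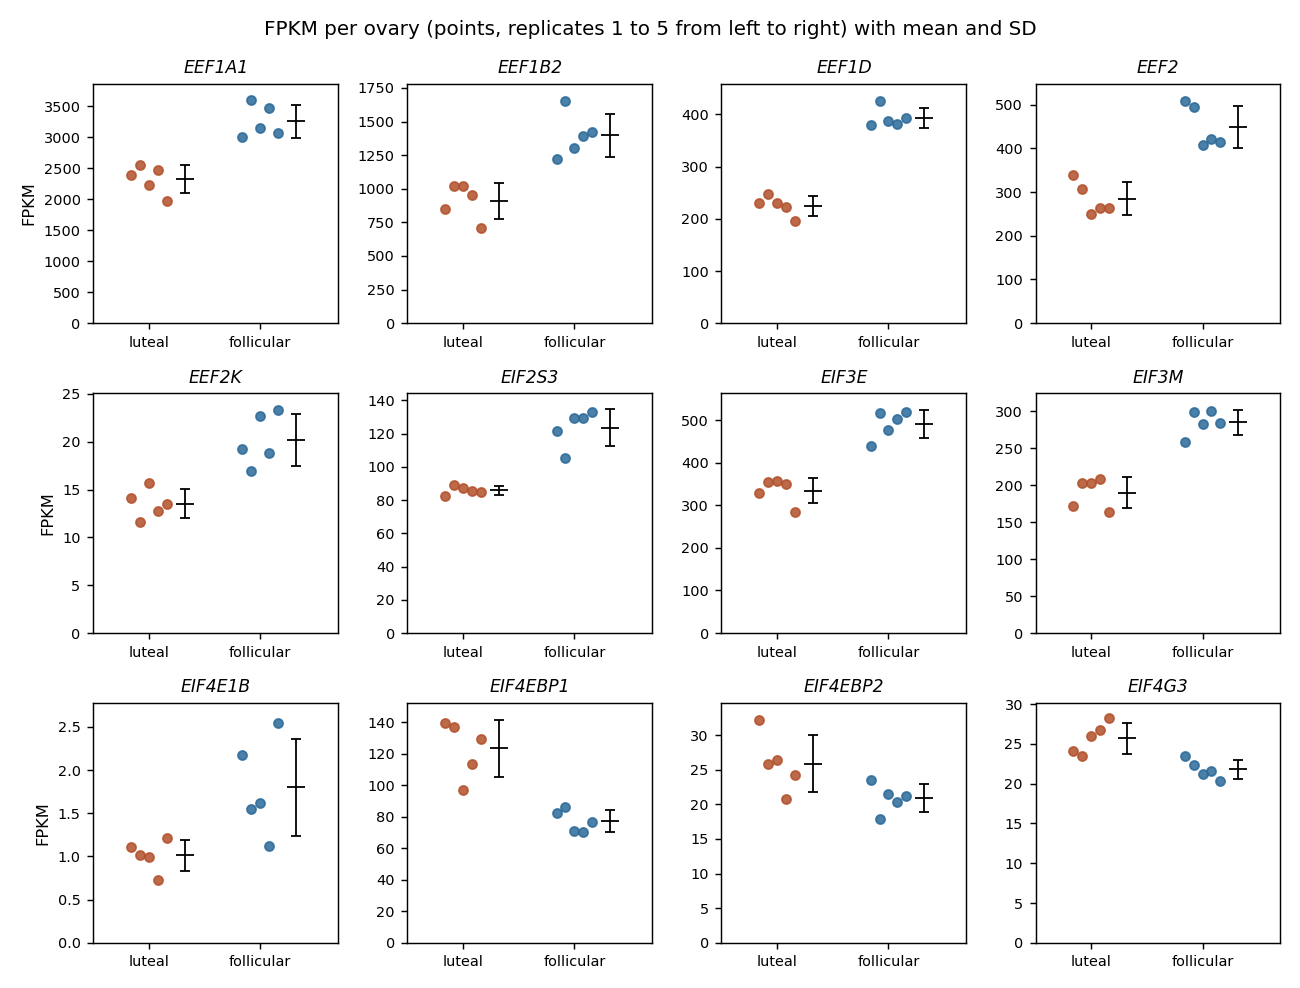
FPKM of 12 members in each ovary (points, replicates 1 to 5 from left to right) with the mean and SD of each phase, on axes that start at 0. The phases do not overlap for EEF1A1, EEF1B2, EEF1D, EEF2, EEF2K, EIF2S3, EIF3E, EIF3M and EIF4EBP1, and they do for EIF4E1B, EIF4EBP2 and EIF4G3.

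The eIF3 complex is the large scaffold on the small ribosomal subunit that holds the other initiation factors. Of its 12 subunit genes found here, 9 fell in the luteal phase (75%, against 27.8% of all genes) and none rose (against 15.9%), with a median log2 fold change of −0.44 against −0.14 over all genes. EIF3C was not analysed here. EIF3M FPKM was 172, 204, 203, 209 and 163 in the luteal phase ovaries and 259, 299, 283, 301 and 284 in the follicular phase ovaries (log2 fold change −0.59, SE 0.09, adjusted p = 0.00036). EIF3E, the subunit with the highest FPKM, had 328, 355, 357, 349 and 285 FPKM against 440, 517, 478, 503 and 519 (log2 fold change −0.56, SE 0.09, adjusted p = 0.000519). No luteal phase ovary reached the lowest follicular phase ovary for either gene.

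EIF3L (log2 fold change −0.52), EIF3G (−0.51), EIF3D (−0.48) and EIF3H (−0.47) did not overlap between the phases either. EIF3K (−0.41), EIF3B (−0.38) and EIF3F (−0.26) were called with overlapping phases. The call of EIF3B had an adjusted p of 0.0459 and was lost in 8 of 10 fits without 1 ovary (adjusted p of up to 0.0986, without luteal phase ovary 4). EIF3A, the largest core subunit, EIF3I and EIF3J were not called, at log2 fold changes of −0.04 (adjusted p = 0.819), −0.01 (adjusted p = 0.935) and −0.13 (adjusted p = 0.396). EIF3A was at 41.8 ± 5.83 FPKM in the luteal and 42.9 ± 6.54 in the follicular phase. With a common median 6 subunits were lower and in TPM 7, as EIF3B and EIF3F lost their calls under both scalings and EIF3K with a common median.

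**Figure D3:**
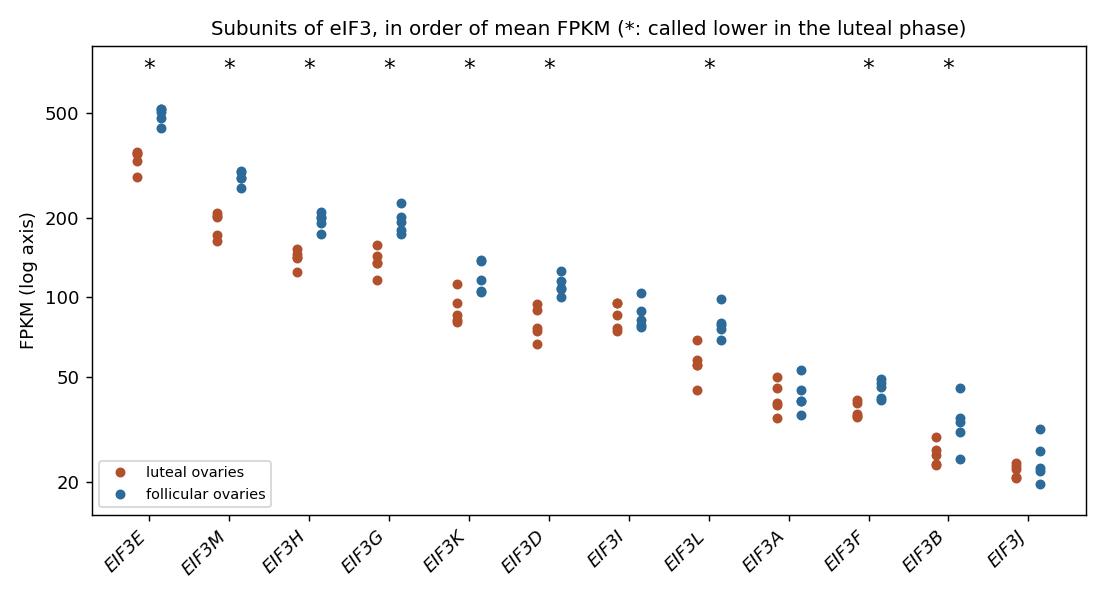
FPKM of the 12 eIF3 subunit genes in each ovary on a log axis, in order of mean FPKM, with an asterisk over genes called lower in the luteal phase. EIF3E, EIF3M, EIF3H and EIF3G lie highest and separate by phase, while the points of EIF3A, EIF3I and EIF3J mix.

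Of 5 genes that deliver the initiator tRNA, 2 were lower in the luteal phase (40%, against 27.8% of all genes). None was higher (against 15.9%), and 3 were not called. EIF2S3 encodes the gamma subunit of eIF2, which binds GTP and the initiator tRNA. EIF2S3 FPKM was 82.3, 89.1, 87.5, 85.4 and 85.1 in the luteal phase ovaries and 121, 105, 129, 130 and 133 in the follicular phase ovaries. The luteal ovaries lay close together, and all were below the follicular ones (log2 fold change −0.52, SE 0.07, adjusted p = 0.000232). The alpha subunit gene EIF2S1 had 37.1 ± 4.75 against 38.3 ± 9.71 FPKM (adjusted p = 0.911) and the beta subunit gene EIF2S2 had 49.5 ± 4.04 against 56.6 ± 7.99 FPKM (adjusted p = 0.138), neither called. With quantile normalization (adjusted p = 0.0291) and with a replicate block EIF2S2 was called lower. EIF2A, an alternative initiation factor that is no subunit of eIF2, was lower at 58.9 to 72.7 against 75.7 to 91.6 FPKM (log2 fold change −0.36, SE 0.07, adjusted p = 0.00285). EIF2D, which can place tRNA on ribosomes without GTP, was not called (log2 fold change 0.20, adjusted p = 0.218).

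The eIF2B complex reloads eIF2 with GTP. Of its 5 subunit genes EIF2B3 (log2 fold change −0.28, SE 0.08, adjusted p = 0.0159) and EIF2B4 (−0.23, SE 0.08, adjusted p = 0.0389) were lower in the luteal phase. This is 40%, against 27.8% of all genes, and none was higher (against 15.9%). With a common median or in TPM 0 of 5 were called. EIF2B4 lost its call in 8 of 10 fits without 1 ovary (adjusted p of up to 0.0838, without luteal phase ovary 3). EIF2B2, close to EIF2B5 as the most abundant subunit, had 20.3, 21.3, 20.0, 22.4 and 20.5 FPKM in the luteal phase ovaries and 22.4, 23.8, 22.4, 22.9 and 21.6 in the follicular phase ovaries. Its phases overlapped and it was not called (log2 fold change −0.11, SE 0.06, adjusted p = 0.142). EIF2B1 and EIF2B5 were not called at −0.04 and −0.14.

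None of the 4 kinases that phosphorylate eIF2 alpha was called by limma, and 1 of them had an unadjusted p under 0.05. EIF2AK2 (PKR), which senses double-stranded RNA, had 24.6, 27.2, 31.5, 38.2 and 38.2 FPKM in the luteal phase ovaries and 26.8, 24.9, 37.8, 39.4 and 15.8 in the follicular phase ovaries. It varied widely within both phases (log2 fold change 0.19, SE 0.23, adjusted p = 0.524). EIF2AK3 (PERK), the sensor of the endoplasmic reticulum, had 14.1 to 17.3 against 12.5 to 14.1 FPKM, with a log2 fold change of 0.18 (SE 0.07, adjusted p = 0.0622), and it was called higher in the luteal phase with a common median, with quantile normalization and in TPM. EIF2AK1 (HRI), which senses heme, and EIF2AK4 (GCN2), which senses uncharged tRNA, were not called at −0.05 and −0.08.

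Of 5 genes grouped with start codon scanning 2 were lower in the luteal phase (40%, against 27.8% of all genes). None was higher (against 15.9%), and with a common median and in TPM 1 was lower. EIF1AX, the X-linked gene of eIF1A, had 62.4 to 86.9 FPKM in the luteal phase ovaries and 88.3 to 127 in the follicular phase ovaries, without overlap (log2 fold change −0.45, SE 0.11, adjusted p = 0.00823). EIF1, the guardian of start codon choice and the most abundant gene of this role, had 131, 130.3, 126, 136 and 132 FPKM against 146, 165, 122, 128 and 145. The 5 luteal values fell inside the follicular range, and EIF1 was not called (log2 fold change −0.10, SE 0.08, adjusted p = 0.336). Its paralog EIF1B was lower at 28.6 ± 1.85 against 33.3 ± 2.70 FPKM (log2 fold change −0.22, SE 0.07, adjusted p = 0.032), a call that was lost with a common median, in TPM and in 6 of 10 fits without 1 ovary (adjusted p of up to 0.0771, without luteal phase ovary 5). EIF1AD, grouped here by its name, and EIF5, which triggers GTP hydrolysis by eIF2, were not called at 0.06 and −0.14. EIF5 was called lower with quantile normalization (adjusted p = 0.0171).

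Among 12 genes of cap recognition and mRNA unwinding 5 fell (41.7%, against 27.8% of all genes) and 1 rose (8.33%, against 15.9%). With a common median and in TPM 3 were lower and 1 higher. The helicase gene EIF4A2 followed EEF1A1 and EEF1B2 in mean FPKM, with 509, 471, 486, 546 and 496 FPKM in the luteal phase ovaries and 558, 690.1, 616, 646 and 616 in the follicular phase ovaries. The lowest follicular value lay just above the highest luteal one (log2 fold change −0.32, SE 0.08, adjusted p = 0.01), and the call was lost with a common median (adjusted p = 0.109). EIF4A1, its close paralog, ranged from 270.4 to 449 against 289 to 604 FPKM and was not called (log2 fold change −0.10, SE 0.20, adjusted p = 0.707). The helicase cofactors EIF4B (184 to 235 against 290.5 to 341 FPKM, log2 fold change −0.52, adjusted p = 0.000562) and EIF4H (90.6 to 105 against 120.1 to 136 FPKM, log2 fold change −0.41, adjusted p = 0.000431) were lower without overlap.

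The cap-binding protein itself showed no call. EIF4E had 66.4 ± 5.71 FPKM in the luteal and 68.3 ± 12.2 in the follicular phase (log2 fold change −0.03, adjusted p = 0.857). EIF4E2, a weaker cap binder, was lower (−0.27, adjusted p = 0.0163), a call that was lost with a common median (adjusted p = 0.119), in TPM (adjusted p = 0.103) and for the most abundant transcript (adjusted p = 0.0596). EIF4E3 was not called (−0.28, adjusted p = 0.235). EIF4E1B, the form known from oocytes, was low, at 1.12, 1.02, 1.00, 0.73 and 1.21 FPKM in the luteal phase ovaries and 2.17, 1.54, 1.62, 1.12 and 2.55 in the follicular phase ovaries. Only follicular phase ovary 4 came within the luteal range (log2 fold change −0.74, SE 0.22, adjusted p = 0.0176), and in TPM the adjusted p was 0.0525. The summed oocyte markers differed in the same direction, at 9.13 to 21.3 against 17.5 to 50.6 FPKM, and their part in the EIF4E1B value was not tested.

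The scaffold EIF4G3 was 1 of the 3 members that were higher in the luteal phase, with 24.2, 23.5, 25.9, 26.8 and 28.3 FPKM against 23.5, 22.3, 21.2, 21.6 and 20.3. The difference was small, and luteal phase ovary 2 lay just below follicular phase ovary 1 (log2 fold change 0.24, SE 0.07, adjusted p = 0.0183). The call held in all 10 fits without 1 ovary but was lost for the most abundant transcript alone (adjusted p = 0.0551). EIF4G1 (log2 fold change 0.09, adjusted p = 0.603), EIF4G2 (0.02, adjusted p = 0.789) and the exon junction helicase EIF4A3 (−0.32, adjusted p = 0.0689) were not called, although EIF4A3 was called lower with quantile normalization (adjusted p = 0.0165) and with a replicate block.

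Of the 4 genes of eIF4E-binding repressors 2 were higher in the luteal phase (50%, against 15.9% of all genes) and 1 lower (25%, against 27.8%). EIF4EBP1 encodes 4E-BP1, which holds eIF4E away from eIF4G until mTOR phosphorylates it. EIF4EBP1 FPKM was 140, 137, 97.0, 114 and 129 in the luteal phase ovaries and 82.4, 86.0, 71.0, 70.6 and 76.8 in the follicular phase ovaries. It was the only member whose luteal values all lay above the follicular ones, 59.5% higher in the mean (log2 fold change 0.66, SE 0.11, adjusted p = 0.000607). With a common median the log2 fold change was 0.75 and in TPM 0.76, and the call held in all 10 fits without 1 ovary.

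EIF4EBP2 had 32.2, 25.8, 26.4, 20.8 and 24.2 FPKM in the luteal phase ovaries and 23.5, 18.0, 21.4, 20.3 and 21.2 in the follicular phase ovaries. Luteal phase ovary 4 fell among the follicular values, and the call was close to the threshold (log2 fold change 0.30, SE 0.11, adjusted p = 0.0475). It was lost in 8 of 10 fits without 1 ovary (adjusted p of up to 0.0974, without luteal phase ovary 1), for the most abundant transcript (adjusted p = 0.068), with quantile normalization (adjusted p = 0.0585), without trend (adjusted p = 0.0674) and with no filter. It was kept with a common median (adjusted p = 0.0097) and in TPM (adjusted p = 0.0303). EIF4EBP3 was low and not called, at 1.86 to 2.33 against 1.35 to 2.55 FPKM (adjusted p = 0.814). EIF4ENIF1 (4E-T), which carries eIF4E into the nucleus and into P-bodies, was lower at 4.10 ± 0.37 against 5.19 ± 0.52 FPKM (log2 fold change −0.33, SE 0.10, adjusted p = 0.025). For its most abundant transcript the log2 fold change was −0.07 (adjusted p = 0.911). The call was also lost with a common median, in TPM and in 5 of 10 fits without 1 ovary (adjusted p of up to 0.0643, without luteal phase ovary 4).

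A ratio of genes within an ovary does not depend on a factor that scales all its FPKM, such as a common median. Quantile normalization is not such a factor and can change a ratio. Of 14 ratios between paralogs or partners, 0 passed the exact permutation test after Benjamini-Hochberg adjustment and 3 had an unadjusted exact p under 0.05, where 5 against 5 ovaries cannot go below 0.00794. The ratio of EIF4EBP1 to EIF4E was 2.18, 1.93, 1.66, 1.57 and 1.96 in the luteal phase ovaries and 1.304, 0.981, 1.17, 0.975 and 1.33 in the follicular phase ovaries. The phases did not overlap, with a log2 difference of 0.69 (SE 0.13), the smallest possible two-sided exact permutation p of 0.00794 and an adjusted p of 0.111, which is the lowest that a single ratio among 14 can reach. EIF4EBP3 to EIF4EBP1 differed by −0.61 (exact p = 0.0238, adjusted p = 0.167) and EIF4EBP2 to EIF4EBP1 by −0.36 (exact p = 0.0476, adjusted p = 0.194), with overlapping phases. EIF4E1B to EIF4E differed by −0.71 (exact p = 0.0794) and EIF4A2 to EIF4A1 by −0.22 (exact p = 0.310).

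**Figure D4:**
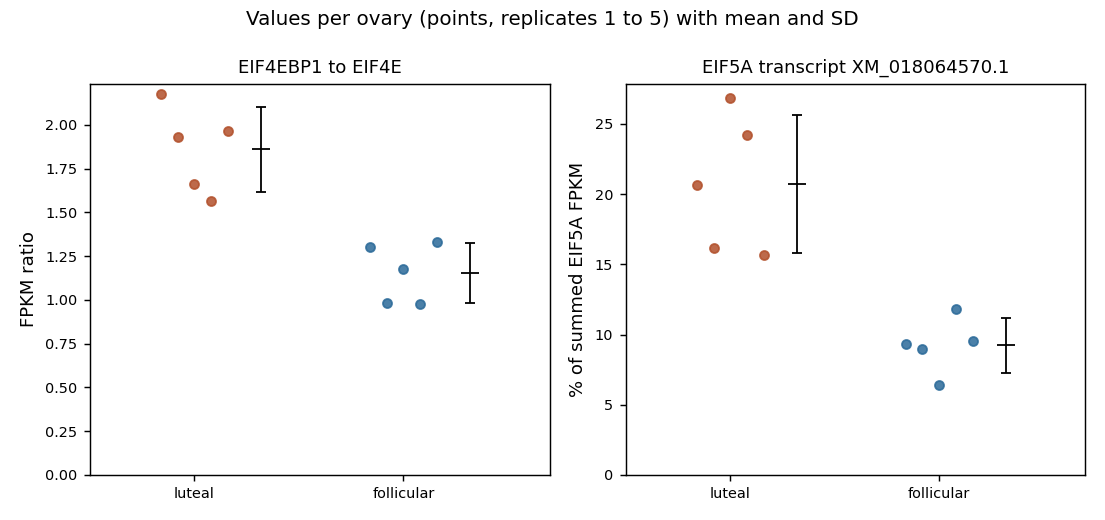
Left, the FPKM ratio of EIF4EBP1 to EIF4E, and right, the percent of EIF5A FPKM from its transcript XM_018064570.1, in each ovary (points, replicates 1 to 5) with the mean and SD, on axes from 0. In both plots all 5 luteal values lie above all 5 follicular ones.

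The late steps of initiation and eIF5A gave no call at the gene level. EIF5B, which joins the ribosomal subunits, had a log2 fold change of 0.00 (SE 0.12, adjusted p = 0.999). EIF6, which keeps the large subunit apart until it is needed, had 56.1, 66.2, 53.1, 56.0 and 50.3 FPKM in the luteal phase ovaries and 52.9, 79.5, 53.9, 58.7 and 56.4 in the follicular phase ovaries (adjusted p = 0.562). EIF5A, the hypusine-bearing factor that helps ribosomes over difficult peptide bonds, had 98.3, 102, 80.8, 87.3 and 93.2 FPKM against 104, 118, 70.9, 88.8 and 72.1 (log2 fold change 0.05, SE 0.14, adjusted p = 0.80). Its paralog EIF5A2 was not called (log2 fold change −0.09, adjusted p = 0.337). The phases overlapped for each of these genes.

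Transcripts were tested on their own over the whole transcript table. Of the 125 transcripts of the members 110 passed the filter and 21 were called (19.1%), against 17.3% of all transcripts tested, with 2 higher and 19 lower in the luteal phase. With a common median the split was 4 higher and 12 lower. A single transcript stood for 35 members, so the comparison within genes concerned 26 members. EIF5A was the only member with a called transcript and no call as a gene. Its minor transcript XM_018064570.1 rose from 8.45 ± 2.66 FPKM in the follicular to 18.8 ± 3.13 FPKM in the luteal phase (log2 fold change 1.20, SE 0.23, adjusted p = 0.0067). It made up 20.6, 16.2, 26.9, 24.2 and 15.7% of EIF5A FPKM in the luteal phase ovaries and 9.35, 8.97, 6.41, 11.8 and 9.56% in the follicular phase ovaries, without overlap. Its major transcript XM_018064569.1 was not called (log2 fold change −0.15, adjusted p = 0.561).

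Apart from EIF5A, 5 members had the largest differences in transcript share, and the transcript compared was called in none of them. The leading transcript of EIF4E3 took 46.6 ± 21.2% in the luteal and 31.7 ± 6.22% in the follicular phase, and that of EIF4G1 took 66.5 ± 9.98% and 51.9 ± 11.4%. A transcript of EIF4ENIF1 took 14.5 ± 2.81% and 24.4 ± 12.7%, and one of EIF2AK1 took 44.3 ± 5.96% and 53.7 ± 4.32%. For EIF2AK4 the shares were 89.8 ± 7.33% and 99.1 ± 2.14%. Shares of similar transcripts are estimates from shared fragments, and their error within an ovary is unknown.

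A few genes held most of the members' signal. Over all ovaries EEF1A1 made up 29.4% of the summed FPKM of the members and EEF1B2 12.1%, and with EIF4A2 and EEF1G these 4 genes reached 52.4%. The members' sum was 7185 to 8779 FPKM in the luteal phase ovaries and 10160 to 12239 in the follicular phase ovaries. As a share of all FPKM in an ovary this was 1.59 to 1.74% (mean 1.68 ± 0.06%, n = 5) and 2.06 to 2.27% (mean 2.11 ± 0.09%, n = 5). The lowest follicular phase ovary thus lay above the highest luteal phase ovary.

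Single ovaries differed from the rest of their phase over many members at once. Follicular phase ovary 2 was the highest of its phase for 38 of 61 members (62.3%), against 24.1% of all genes. Luteal phase ovary 2 was the highest of its phase for 27 members (44.3%), against 20.7% of all genes. Luteal phase ovary 3 was the lowest for 25 members (41.0% against 24.5%) and luteal phase ovary 5 for 20 (32.8% against 15.9%). By the estimate above the deepest libraries were follicular phase ovaries 2 (1.34), 1 (1.31) and 4 (1.24). Follicular phase ovaries 1 and 4 were each the highest for 5 members (8.2%), against 22.8% and 7.62% of all genes. The part of depth in these counts was not tested. Without follicular phase ovary 2 the members split into 2 higher and 24 lower.

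The genes that work beside these factors were followed in 8 lists of 97 genes, all tested. Of these 8 were higher and 16 lower in the luteal phase. In TPM the split turned to 15 higher and 9 lower, with a common median it was 8 and 9, and without follicular phase ovary 2 it was 18 and 18. Over all genes 15.9% were higher and 27.8% lower, so the 8.25% and 16.5% of these lists lay below the background. The count of higher genes outside the members therefore depends on 1 library and on the scale.

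Of 8 genes of termination, recycling and rescue 3 were higher (37.5%, against 15.9% of all genes) and none was lower (against 27.8%). The other 5 were not called, and the median log2 fold change was 0.24, against −0.14 over all genes. HBS1L and PELO, which together open stalled ribosomes, stood at 42.3 ± 2.70 against 32.4 ± 1.54 FPKM (log2 fold change 0.38, adjusted p = 0.00079) and at 18.6 ± 0.95 against 15.6 ± 1.15 FPKM (0.25, adjusted p = 0.0139). LTN1, the ubiquitin ligase for peptides left on split ribosomes, had a log2 fold change of 0.26 (adjusted p = 0.0142). Luteal values of the 3 genes all lay above the follicular ones, where the phases did not overlap for 28.4% of all genes. With a common median 3 genes of the list were called higher and in TPM 4. Of 6 genes of poly(A)-binding proteins and their cofactors 4 were lower (66.7%, against 27.8% of all genes) and none was higher (against 15.9%). The other 2 were not called (list median −0.35), and 3 were lower with a common median and 2 in TPM. The lower genes were PAIP2B (−0.47), PABPC1 (−0.38), PABPC4 (−0.33) and, named after its values were seen, PAIP1 (−0.24). PAIP1 lost its call with a common median and in TPM, and PABPC4 in TPM (adjusted p = 0.0649).

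**Figure D5:**
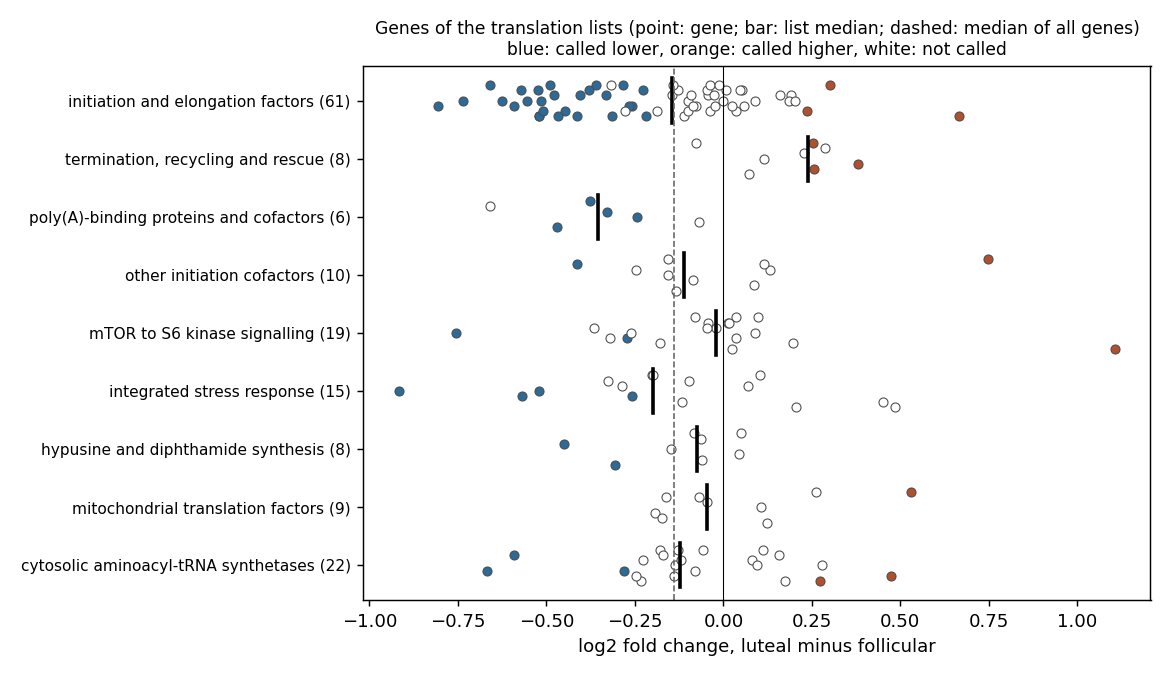
Log2 fold change, luteal minus follicular, of each gene in the 8 lists and of the 61 members (points), with list medians (bars) and the median of all genes (dashed line); blue is called lower, orange called higher and white not called. The 3 orange points of the rescue list lie right of 0 and the 4 blue points of the poly(A) list left of it, and most points of the other lists are white.

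Single genes stood out in the remaining lists. Among 10 other initiation cofactors BZW1 was higher (10%, against 15.9% of all genes) and BZW2 lower (10%, against 27.8%). Both encode decoys of eIF5. BZW1 had 308 ± 42.8 against 184 ± 34.0 FPKM without overlap (log2 fold change 0.75, SE 0.13, adjusted p = 0.00121), and BZW2 had 22.2 ± 3.38 against 29.8 ± 5.89 FPKM (−0.42, SE 0.14, adjusted p = 0.0343). The call of BZW2 was lost with a common median (adjusted p = 0.122), in TPM (adjusted p = 0.0742) and in 7 of 10 fits without 1 ovary. Among 19 genes of the mTOR and S6 kinase list 1 was higher (5.26%, against 15.9% of all genes) and 2 lower (10.5%, against 27.8%). The median was −0.02. RPS6KA3 (RSK2), a kinase driven by ERK rather than by mTOR, had 36.6 ± 2.42 against 16.9 ± 1.16 FPKM (log2 fold change 1.11, SE 0.07, adjusted p = 1.12e-06). DEPTOR, an inhibitor bound to mTOR, was lower (−0.76, SE 0.17, adjusted p = 0.00468), as was RICTOR, a subunit of mTOR complex 2 (−0.27, SE 0.09, adjusted p = 0.0347). RICTOR lost its call with a common median (adjusted p = 0.103), in TPM (adjusted p = 0.255) and in 8 of 10 fits without 1 ovary. MTOR itself was not called (0.10, adjusted p = 0.306), a gene named after its values were seen.

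Of 15 genes of the integrated stress response, the program downstream of phosphorylated eIF2 alpha, 4 were lower and none higher (median −0.20). This is 26.7% of the list, near the 27.8% of all genes. CHAC1, which breaks down glutathione, was low at 0.25 ± 0.07 against 0.56 ± 0.11 FPKM (log2 fold change −0.92, SE 0.20, adjusted p = 0.00365). DDIT3 (CHOP) had 21.4 ± 1.96 against 32.6 ± 8.44 FPKM (−0.57, SE 0.16, adjusted p = 0.0137). PPP1R15A, which brings a phosphatase to eIF2 alpha, was lower (−0.52, adjusted p = 0.0454), as was its paralog PPP1R15B (−0.26, adjusted p = 0.0249), while ATF4, the central factor, was not called (−0.10, adjusted p = 0.492); the last pair was named after their values were seen. PPP1R15A and PPP1R15B lost their calls with a common median (adjusted p = 0.0736 and 0.128) and in TPM (0.124 and 0.1998), and in 8 and 3 of 10 fits without 1 ovary.

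Among 8 genes that build hypusine on eIF5A and diphthamide on eEF2, the diphthamide genes DPH1 (log2 fold change −0.45, adjusted p = 0.00503) and DPH6 (−0.31, adjusted p = 0.0329) were lower. These are 25% of the list, near the 27.8% of all genes, and none was higher (against 15.9%). DPH6 lost its call with a common median (adjusted p = 0.154), in TPM (adjusted p = 0.148) and in 5 of 10 fits without 1 ovary. Of 9 mitochondrial translation factors TSFM, an elongation factor of mitochondria, was higher (0.53, SE 0.11, adjusted p = 0.0028). This is 11.1% of the list, against 15.9% of all genes, and none was lower (against 27.8%). Of 22 cytosolic aminoacyl-tRNA synthetases and their scaffold genes 2 were higher (9.09%, against 15.9% of all genes) and 3 lower (13.6%, against 27.8%). KARS (lysine) had 161 ± 14.8 against 256 ± 13.8 FPKM (−0.67), AIMP1, a scaffold of the multi-synthetase complex, 49.0 ± 3.72 against 73.9 ± 5.11 FPKM (−0.59) and EPRS (glutamate and proline) 69.4 ± 3.34 against 51.3 ± 14.0 FPKM (0.47). The other calls, named after their values were seen, were DARS (−0.28), which lost its call with a common median (adjusted p = 0.138), and WARS (0.27), which lost it in 8 of 10 fits without 1 ovary.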

How the data were processed

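RNA of 5 luteal phase and 5 follicular phase goat ovaries was sequenced after removal of ribosomal RNA, in stranded libraries of paired reads. HISAT2 (alignment), StringTie (assembly) and Cuffdiff (quantification) were used by the authors to make the deposited FPKM of each transcript in each ovary, with no pooling. The genome build and the treatment of multi-mapped reads are not given in the sources used here, so no coordinates or sequences are printed. Depth per ovary is known only as a ratio, and the spread between ovaries is the measure of precision.

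Here, FPKM of protein-coding transcripts were summed by symbol, and genes that reached an FPKM of 0.1 in 5 or more ovaries entered the test on log2(FPKM + 0.1), luteal minus follicular, two-sided, with limma 3.58.1 (lmFit, eBayes with trend) in R 4.3.3. A fold change on this scale understates changes of low genes. No replicate block was used in the main fit, as neither the labels nor the methods tie equal numbers together. Ratios were tested by exact permutation of the ovaries. Python 3.11.15 with pandas 2.3.3, scipy 1.17.1, numpy 2.4.6 and matplotlib 3.10.9 was used. Cuffdiff's own test needs reads and was not repeated.

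The members and gene lists were chosen with earlier results of these data known. Values in all ovaries are given for the called members among the 6 largest increases and 6 largest decreases and for the most abundant member of each role, and other genes by list (up to 3 calls per list) or by count. Transcripts are those of the 6 members with the largest difference in share.

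In simulated data of 15359 genes, 100 genes were changed by 0.5 on the log2 scale and 100 by 1. The limma script recovered 26% and 72% of them. All other genes had no phase difference by construction, so the absence of false calls there was fixed in advance. In the data 43.7% of genes were called, so the adjustment was stricter in the simulation, and its shares do not measure power here. An uncalled gene may still differ. The alternatives tried were a common median, TPM or quantile normalization, a replicate block, other pseudocounts (0.01 and 1), a stricter filter (0.5 FPKM) or none, the most abundant transcript alone, eBayes without trend, a threshold of 0.01 and leaving out each ovary. The tables of mRNA and annotated lncRNA alone were not used.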

Additional observations from a re-analysis of the deposited data

Results flagged for a closer look

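Each member was examined in each phase for an ovary far from the other 4 by Dixon's criterion, 122 groups of 5 ovaries in all. In 5 groups (4.1%) an ovary stood out. The groups reuse the same 10 ovaries and are not independent, so this share cannot be set against a chance rate. Follicular phase ovary 2 was the highest in 4 of them. EEF1D had 425.6 FPKM there against 379.4 to 392.2 in the other follicular phase ovaries, EEF1G 622.4 against 533.9 to 554.8, EIF4A3 92.53 against 56.26 to 63.76 and EIF6 79.52 against 52.92 to 58.7. EEF1A2 had 1.602 FPKM in follicular phase ovary 5 against 0.1551 to 0.2961 in the others. EEF1D and EEF1G kept their lower call without follicular phase ovary 2, and the cause of the high values was not tested.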

How the results depend on the processing

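None of the 30 called members changed sign under the alternatives run, while 20 of the 31 members that were not called did under at least 1. The members called higher in the luteal phase numbered 1 for the most abundant transcript and 1 at an adjusted p under 0.01, and those called lower numbered 17 with a common median and 17 at 0.01. Without 1 ovary 2 to 3 members were higher and 23 to 26 lower. Of the other genes in the lists, 15 were higher in TPM and 4 at 0.01, and 9 were lower with a common median, in TPM and at 0.01. Without 1 ovary between 6 (without follicular phase ovary 3) and 18 (without follicular phase ovary 2) were higher, and between 12 and 18 lower. Transcripts of members numbered 4 higher and 12 lower with a common median. The cause of these shifts was not tested beyond the fewer samples or the stricter threshold that some alternatives bring.

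Of the alternatives for the members given in full, 20 lost the call, 13 of them for EIF4EBP2 and 4 at an adjusted p under 0.01 (EIF4EBP2, EIF4G3, EIF4E1B and EIF4A2), and 11 changed sign. The log2 fold change of EEF1AKMT1 was 0.0411 with a common median, 0.0246 with quantile normalization, 0.0542 in TPM and 0.123 for the most abundant transcript, and that of EIF5A was −0.0672 with quantile normalization and −0.149 for the most abundant transcript. EIF6 was at 0.0118 in TPM. Without 1 ovary the log2 fold change ranged from −0.0344 to 0.1501 for EIF5A, from −0.0081 to 0.3201 for EIF2AK2 (the lowest without follicular phase ovary 5) and from −0.147 to 0.0168 for EIF6 (the highest without follicular phase ovary 2). No ratio passed the threshold under any alternative, but a single ratio among the 14 cannot pass it with 5 or fewer ovaries per phase. For the most abundant transcripts the log2 ratio of EIF5A2 to EIF5A differed by 0.0586, of EIF4E3 to EIF4E by 0.191 and of EIF4G3 to EIF4G1 by −0.239, each opposite in sign to the summed genes, and that of EEF2K to EEF2 ranged from −0.0129 (without luteal phase ovary 3) to 0.167 without 1 ovary. With a replicate block 3 members were higher and 28 lower: EIF2B4 was lost, and EIF2S2 and EIF4A3 were gained. Deviations of ovaries with the same number correlated at 0.026 to 0.199, over 0.1 in 2 of 5 pairs, and those with unlike numbers at −0.245 to 0.224. Of 10 ovaries 5 correlated best with their own number. The labels do not pair the ovaries, so the main fit did not, and whether equal numbers are linked is unknown. Depth limits the low members most, among them EEF1A2, EIF4E1B and EIF4EBP3, and the number of fragments behind a value is unknown.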
